A study of Mus musculus with 10 samples.

Results

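The genes described here encode the machinery that releases and recycles synaptic vesicles. They are 31 presynaptic genes, chosen by name, out of 22198 genes with a measured level, and all 31 were found. Their RNA levels were measured in the brain cortex of mice aged 6 months that received no treatment. There were 5 libraries labelled ctrl, with the genotype Mic19 WT, and 5 labelled BKO, with the genotype Mic19 knockout. Mic19 is the product of Chchd3, a subunit of the MICOS complex that shapes the inner mitochondrial membrane. The strain, the sex, the allele and any Cre driver of the knockout are not given in the sources used here. Nothing in the labels ties a library to a mouse of its own, and the p-values therefore reflect only the spread between libraries.

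Neurotransmitter leaves a nerve terminal when a vesicle fuses with the plasma membrane. Fusion is driven by a bundle of SNARE proteins, from the vesicle (the VAMPs) and from the plasma membrane (SNAP-25 and syntaxin). Synaptotagmins sense the calcium that enters with an action potential, complexins hold and then help the SNARE bundle, and the active zone scaffold places vesicles near calcium channels. After fusion, NSF and the SNAPs take the SNARE bundle apart, and dynamin, amphiphysin and synaptojanin retrieve the membrane. Several of these proteins come in paralogs that different neurons use in different amounts. In the cortex, SYT2 is known as a marker of the terminals of fast-spiking, parvalbumin-positive interneurons.

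Of the 31 genes, 4 fell in the BKO cortex and none rose. They were Syt2, Vamp1, Snap25 and Syt11, and their mean levels differed from ctrl by -24.0%, -17.2%, -11.7% and -10.2%. The test was limma on log2(FPKM + 0.5), fitted over the 14447 genes that reached 0.5 FPKM in 5 or more of the 10 libraries, with calls made at an adjusted p (Benjamini-Hochberg, over all 14447) under 0.05. FPKM relates the fragments of a gene to its transcript's length and to the size of the library, so levels can be compared between genes per length. Over all genes tested, 2.46% fell and 3.32% rose, against 12.9% and 0 of the 31 genes. All BKO libraries lay below all ctrl libraries for 3 of the 31 genes, namely Syt2, Syt11 and Napa, where 3.09% of all genes did so, and lay above them for none, where 3.62% of all genes did. At an unadjusted limma p under 0.05, 9 of the 31 genes were lower and 0 higher, which is 29.0% and 0 against 8.35% and 9.12% of all genes. The 31 genes were also far more abundant than most, with a median level of 184 FPKM against 16.9 FPKM for all genes tested. The median log2 difference (BKO minus ctrl) of the 31 genes was -0.073, with a range from -0.38 for Syt2 to 0.12 for Syn3, and that of all genes tested was near 0, at -5.25e-05. Without ctrl 2 the median of the 31 genes was -0.042, and after quantile normalization it was -0.036. The difference was below 0 for 22 of the 31 genes, or 71.0%, against 50.02% of all genes.

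**Figure D1:**
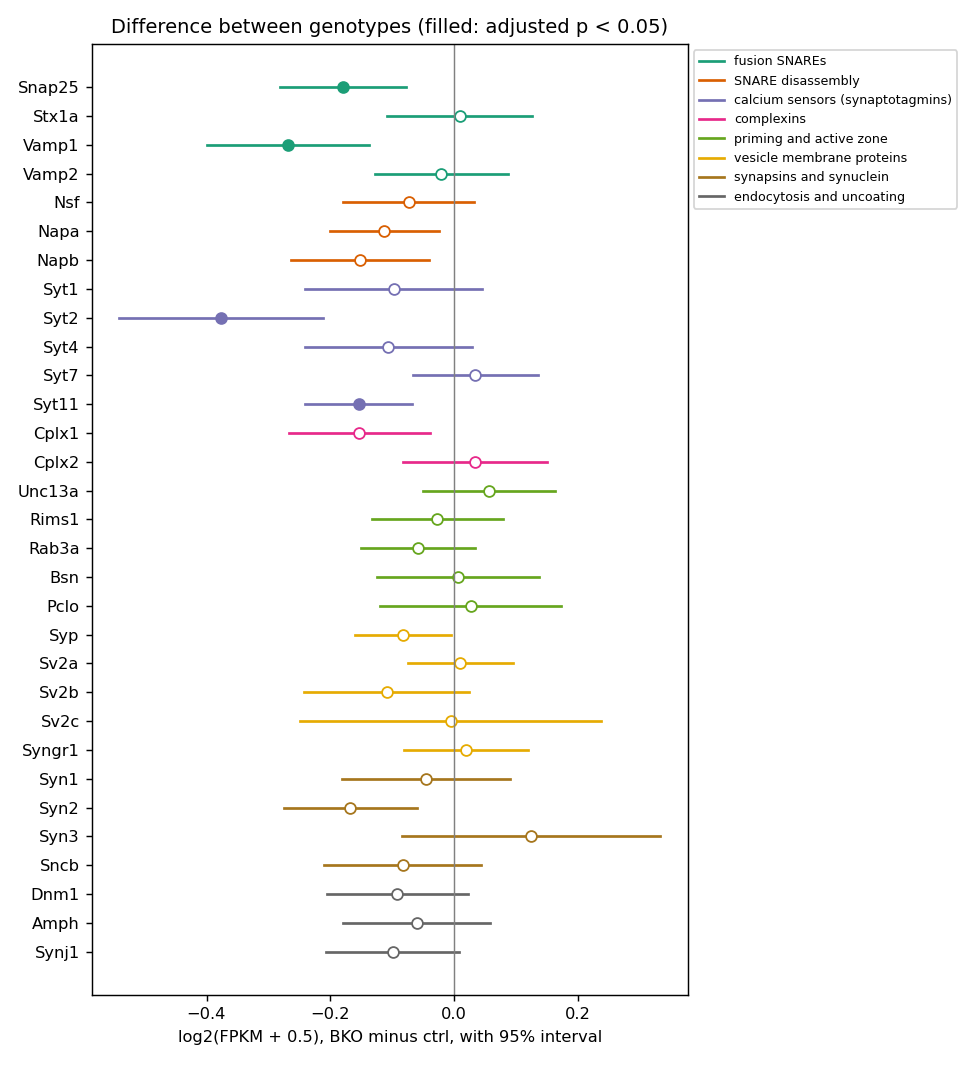
Difference in level between BKO and ctrl for each of the 31 genes, in log2(FPKM + 0.5), with limma's 95% interval as a line, coloured by role. Filled points mark the 4 genes with an adjusted p under 0.05, all to the left of 0.

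The libraries held 13438 to 13720 genes at 1 FPKM or more. The whole-gene level of Chchd3 was 78.4 ± 3.53 FPKM under the label ctrl and 88.2 ± 4.54 FPKM under the label BKO (SD, n = 5 each; limma adjusted p = 0.0528), so it was not lower where the label says knockout, and all directions below follow the labels. Slc17a7, the vesicular glutamate transporter of cortical excitatory neurons, was present in every library, at 629 to 692 FPKM in ctrl and 560.2 to 682 FPKM in BKO, with overlapping groups (log2 difference -0.033, limma adjusted p = 0.817). The choroid plexus marker Ttr was over 1000 FPKM in 6 libraries (ctrl 1, 3 and 5, BKO 1, 2 and 5) and at 38.9 to 89.9 FPKM in the other 4. The summed level of the 31 genes ran from 10220.4 to 11507 FPKM in ctrl and from 9564 to 10440.0 FPKM in BKO, so the groups overlapped. Of the 10 libraries, BKO 2 was the lowest for 19 of the 31 genes and ctrl 2 the highest for 15. Within ctrl, library 5 was the lowest for 16 genes. In whole cortex, fewer cells of a type and less RNA per cell cannot be told apart.

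**Figure D2:**
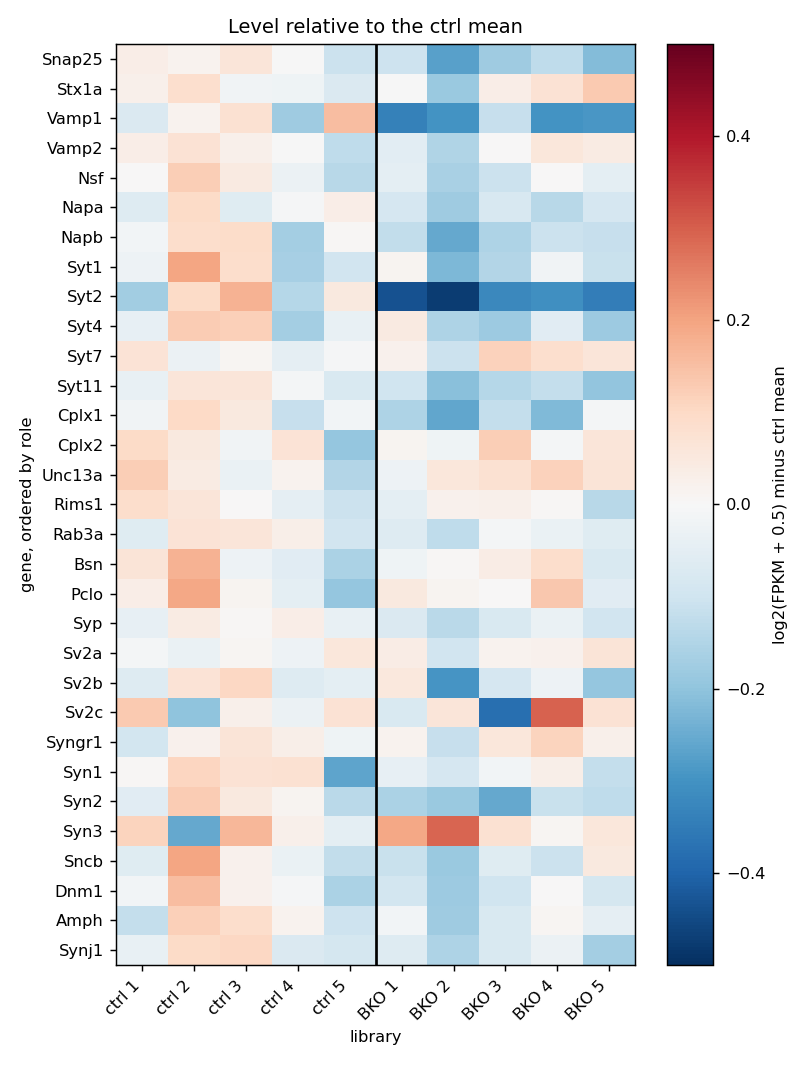
Level of each of the 31 genes (rows, ordered by role) in each of the 10 libraries (columns), as log2(FPKM + 0.5) minus the mean of the 5 ctrl libraries. Blue is lower and red higher than the ctrl mean. Several rows, those of Snap25, Vamp1, Syt2 and Syt11 among them, are blue in all 5 BKO libraries. BKO 2 is the lowest library for 19 of the 31 genes.

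The core promoters of the genes that fell are shown because these genes changed in the same direction. RefSeq promoter sequences (build GRCm38.p6) were matched by symbol for 26 of the 31 genes, with 34 promoters between them. Snap25, Vamp2, Syn3, Syt4 and Syt7 had no entry. The sequences below run 5′ to 3′ over the 250 bases before the annotated start, and capitals mark the GC box GGGCGG on either strand. The first is that of Vamp1 (chr6:125215331-125215580, plus strand), the second that of Syt11 (chr3:88772600-88772849, minus strand), and the last is a pair of alternative promoters of Syt2 (chr1:134646362-134646611, plus strand and chr1:134709050-134709299, plus strand).
Vamp1: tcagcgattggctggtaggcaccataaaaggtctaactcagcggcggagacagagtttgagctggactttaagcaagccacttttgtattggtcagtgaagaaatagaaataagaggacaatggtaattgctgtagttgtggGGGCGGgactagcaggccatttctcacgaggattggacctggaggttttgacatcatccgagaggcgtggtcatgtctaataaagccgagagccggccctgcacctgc
Syt11: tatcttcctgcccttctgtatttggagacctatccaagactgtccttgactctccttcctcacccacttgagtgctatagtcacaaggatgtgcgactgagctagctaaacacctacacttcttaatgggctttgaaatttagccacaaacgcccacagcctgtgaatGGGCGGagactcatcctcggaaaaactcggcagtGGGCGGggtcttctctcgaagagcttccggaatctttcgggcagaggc
Syt2 upstream: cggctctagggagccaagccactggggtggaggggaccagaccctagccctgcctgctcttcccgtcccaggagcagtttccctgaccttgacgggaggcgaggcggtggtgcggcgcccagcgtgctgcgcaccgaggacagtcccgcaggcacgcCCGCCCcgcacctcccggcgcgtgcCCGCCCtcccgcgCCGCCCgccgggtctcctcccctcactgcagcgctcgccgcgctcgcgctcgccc
Syt2 downstream: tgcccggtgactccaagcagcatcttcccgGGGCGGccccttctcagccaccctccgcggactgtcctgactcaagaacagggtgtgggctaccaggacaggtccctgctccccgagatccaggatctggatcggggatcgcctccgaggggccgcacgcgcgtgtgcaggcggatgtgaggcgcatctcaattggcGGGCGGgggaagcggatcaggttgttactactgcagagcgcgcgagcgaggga

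All of these promoters held a GC box, 1 in Vamp1, 2 in Syt11, and 3 and 2 in the promoters of Syt2. Windows of the same length held it in 32.7% of all 32851 promoters and in 55.9% of the 34 promoters of the synaptic vesicle genes, whose median GC content was 61.2% against 52.4% for all promoters. The cAMP response element TGACGTCA, searched on both strands like the others, was found in the promoter of Syn1 and in no other of the 34 (1.55% of all promoters). The E-box CACGTG was found in 3 of the 34 (6.02% of all), CAGCACC, the left arm of the RE1 element, on either strand in 3 (5.73%), the TATA box TATAAA in 2 (12.4%) and the amino acid response element TGATGCAA in 0 (0.791%). No 2 of these motifs share letters in the 4 promoters shown, where the GC box alone was found. These matches describe letters and not binding.

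Among the SNARE proteins that fuse vesicle and plasma membrane, Snap25 and Vamp1 fell, while Stx1a and Vamp2 did not pass the test. Snap25, which gives a pair of the helices of the SNARE bundle and had the highest level of the 31 genes, stood at 2345, 2322, 2392, 2288 and 2130.5 FPKM in ctrl libraries 1 to 5. In BKO libraries 1 to 5 it stood at 2135, 1902, 2026, 2098 and 1971 FPKM. All but 1 of the BKO libraries lay below every ctrl library, and BKO 1 lay just above ctrl 5, so the groups overlapped. The mean went from 2295 ± 99.6 to 2027 ± 94.1 FPKM (SD, n = 5 each), and Snap25 fell by 0.18 on the log2 scale (SE 0.0474, limma adjusted p = 0.0379). This call rested on most libraries: it was kept without ctrl 5 or BKO 1 and lost without any other 1 library (limma adjusted p = 0.0535 to 0.107). It was also lost after rescaling to an equal FPKM sum (0.0600), after quantile normalization (0.217), without the filter on low values (0.139) and with the choroid plexus markers as a covariate (0.0541), all as limma adjusted p.

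Vamp1, the vesicle SNARE that is most used in spinal cord, brainstem and fast-spiking neurons, stood at 148, 158, 164, 138 and 173 FPKM in ctrl libraries 1 to 5. In BKO it stood at 123, 126, 144, 126 and 127 FPKM in libraries 1 to 5. Library BKO 3 was above ctrl 4, and the other BKO libraries lay below every ctrl library. The genes on its opposite strand, Tapbpl and Cd27, were far lower, with means of 7.22 and 0.343 FPKM. The mean went from 156 ± 13.8 to 129 ± 8.18 FPKM (SD, n = 5 each), and Vamp1 fell by 0.27 (SE 0.0612, limma adjusted p = 0.0162). The call was lost without ctrl 3 (limma adjusted p = 0.0503). The difference was -0.36 within the 6 libraries with high Ttr (limma adjusted p = 0.0160) and -0.13 within the 4 with low Ttr (limma adjusted p = 0.656), which hold 2 libraries of each genotype.

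Vamp2, the main vesicle SNARE of forebrain synapses, stood at 870.0, 895, 866, 848 and 778 FPKM in ctrl libraries 1 to 5 and at 821, 766, 851, 885 and 875 FPKM in BKO libraries 1 to 5. The groups overlapped over almost their whole range, and the difference was -0.02 with a 95% interval from -0.13 to 0.087 (limma adjusted p = 0.888). Stx1a, a syntaxin of the presynaptic plasma membrane, ranged from 235 to 262 FPKM in ctrl and from 218 to 271 FPKM in BKO, with a 95% interval of the log2 difference from -0.11 to 0.13. The interval of Vamp1, from -0.40 to -0.14, lay below that of Vamp2, from -0.13 to 0.087, and the direct comparison of both is given with the paralog shares.

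**Figure D3:**
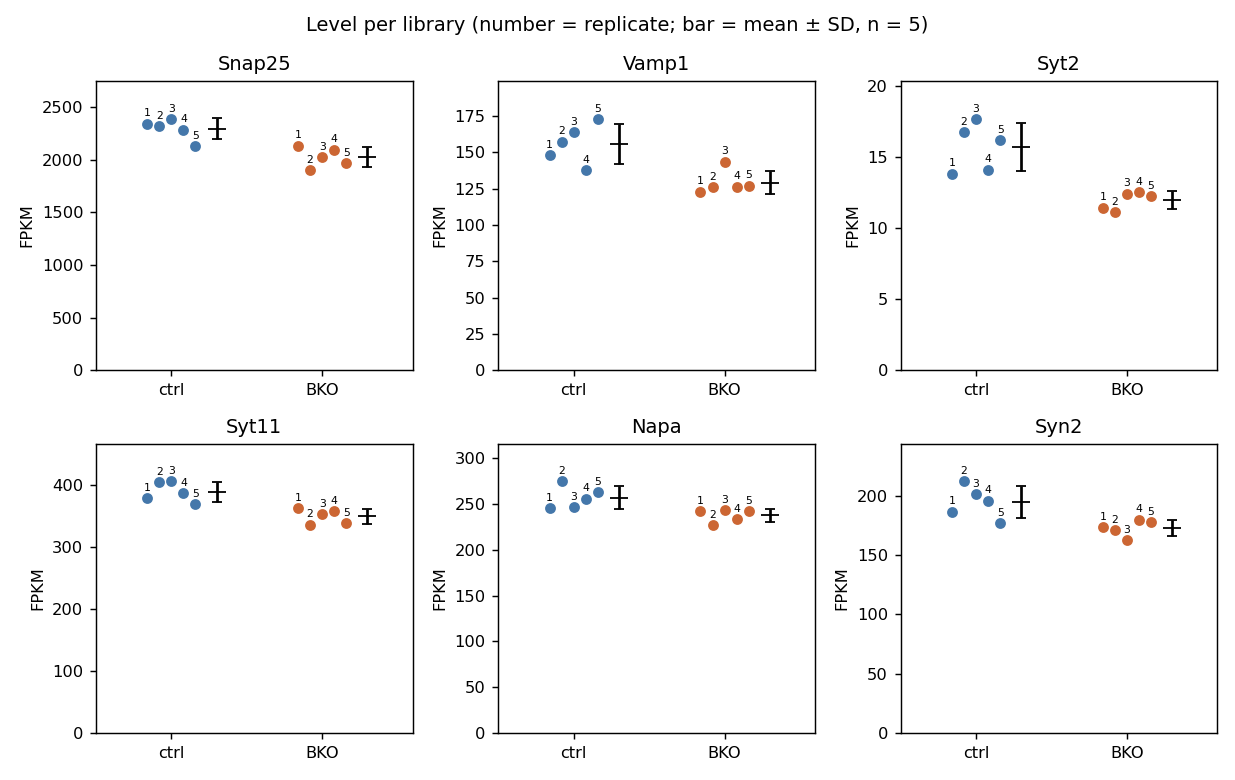
FPKM of 6 of the genes in each library (numbers are the replicates of the labels), with the mean ± SD (n = 5) as a bar beside the points; every vertical axis starts at 0. The groups are apart for Syt2, Syt11 and Napa, and overlap for Snap25, Vamp1 and Syn2.

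The 3 genes that serve to take SNARE bundles apart were lower in BKO on average, and none passed the test. Napa, alpha-SNAP, which brings NSF to the SNARE bundle, stood at 246, 275, 246, 256 and 263 FPKM in ctrl libraries 1 to 5 and 242, 227, 243, 233 and 243 FPKM in BKO libraries 1 to 5. All BKO values lay under all ctrl values, and the log2 difference was -0.11 (SE 0.0410, limma adjusted p = 0.152). Napb, beta-SNAP, the brain form, stood at 201, 216, 217, 181 and 204 FPKM in ctrl and at 187, 170.3, 183, 189 and 188 FPKM in BKO. Only ctrl 4 lay within the range of BKO, and the log2 difference was -0.15 (SE 0.0518, limma adjusted p = 0.120); without ctrl 4 Napb passed the test (-0.19, limma adjusted p = 0.020). Nsf, the ATPase itself, went from 389 ± 25.8 to 369 ± 16.1 FPKM (SD, n = 5 each), with a 95% interval of the log2 difference from -0.18 to 0.033.

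Of the 5 synaptotagmins, Syt2 and Syt11 fell. Syt2, a fast calcium sensor for release, stood at 13.8, 16.8, 17.7, 14.1 and 16.2 FPKM in ctrl libraries 1 to 5 and at 11.4, 11.1, 12.4, 12.6 and 12.2 FPKM in BKO libraries 1 to 5. The 5 BKO values all lay under the 5 ctrl values. The mean went from 15.7 ± 1.69 to 12.0 ± 0.634 FPKM (SD, n = 5 each), and Syt2 fell by 0.38 (SE 0.0766, limma adjusted p = 0.00728), the farthest from 0 of the 31 genes. The call held with each library left out in turn (limma adjusted p = 0.00420 to 0.0242). Ppp1r12b, whose span overlaps that of Syt2 on the opposite strand, had a log2 difference of 0.022 (limma adjusted p = 0.916). The use of strand is not given, only whole gene spans were compared, and whether reads of both genes were mixed was not tested. Syt2 was not called within the 6 libraries with high Ttr (-0.43, limma adjusted p = 0.0599) or within the 4 with low Ttr (-0.29, limma adjusted p = 0.410).

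Syt11, a synaptotagmin that does not bind calcium and that is known to curb endocytosis, stood at 379, 405, 406, 386 and 369 FPKM in ctrl libraries 1 to 5. In the BKO libraries its values were 363, 336, 352, 357 and 339 FPKM. The groups did not overlap, and Syt11 fell by 0.15 (SE 0.0403, limma adjusted p = 0.0366). Its call was kept without ctrl 5 or BKO 1 and lost without any other 1 library (limma adjusted p = 0.0526 to 0.106). It was also lost after rescaling to an equal FPKM sum (limma adjusted p = 0.0735), after quantile normalization (0.0770), without the filter (0.0502) and with the choroid plexus markers as a covariate (0.0501).

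Syt1, the main calcium sensor of fast release in forebrain, stood at 596, 696, 646, 541 and 568 FPKM in ctrl libraries 1 to 5 and 612, 520.1, 548, 599.5 and 562 FPKM in BKO libraries 1 to 5. The groups overlapped, and the 95% interval of the log2 difference ran from -0.24 to 0.046 (limma adjusted p = 0.505). Syt4, which is induced by activity and found on dense-core vesicles, was at 108 ± 9.43 and 101 ± 7.03 FPKM (SD, n = 5 each; limma adjusted p = 0.429). Syt7, the slow, high-affinity sensor, was at 75.6 ± 2.35 and 77.5 ± 4.59 FPKM (limma adjusted p = 0.779), with an interval from -0.067 to 0.14.

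Neither complexin passed the test. Cplx1, the form that inhibitory and other fast neurons use most, stood at 786, 854, 823, 735 and 788 FPKM in ctrl libraries 1 to 5 and 715, 665, 734, 683 and 791 FPKM in BKO libraries 1 to 5. All but BKO 5 lay below every ctrl library, and the log2 difference was -0.15 (SE 0.0533, limma adjusted p = 0.129). Cplx2, the form more used by excitatory neurons, stood at 490.3, 474, 452, 481 and 401 FPKM in ctrl and 463, 452, 499.8, 456 and 479 FPKM in BKO. Its groups overlapped, ctrl 5 being the lowest of all 10 libraries, and its log2 difference was 0.034, with an interval from -0.082 to 0.15.

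The 5 genes of vesicle priming and of the active zone had a median log2 difference of 0.0064, and none was called. Unc13a, Munc13-1, which primes vesicles by opening syntaxin, averaged 105 ± 7.22 FPKM in the ctrl libraries and 109 ± 3.87 FPKM in the BKO libraries (SD, n = 5 each), with an interval of the log2 difference from -0.049 to 0.16. Rims1, a RIM scaffold that binds calcium channels and RAB3, was at 63.2 ± 3.44 and 62.0 ± 2.92 FPKM, with an interval from -0.13 to 0.079. The giant scaffolds Bsn (bassoon) and Pclo (piccolo) had intervals from -0.13 to 0.14 and from -0.12 to 0.17. Rab3a, the small GTPase of the vesicle, went from 809 ± 41.2 to 776 ± 23.5 FPKM, and all 5 BKO libraries lay below the ctrl mean (limma adjusted p = 0.545).

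None of the 5 vesicle membrane proteins passed the test. Syp, synaptophysin, the protein most used to stain synapses, went from 655 ± 17.1 to 619 ± 16.2 FPKM (SD, n = 5 each), with 4 of the 5 BKO libraries below every ctrl library. Its log2 difference was -0.082 and the limma adjusted p was 0.256. Syngr1, synaptogyrin, had an interval from -0.08 to 0.12. The transporter-like SV2 glycoproteins are 3 paralogs. Sv2a, the widespread form and the target of levetiracetam, an antiseizure drug, stood at 160.2, 157, 162, 158 and 168 FPKM in ctrl and 166, 151, 163, 164 and 169 FPKM in BKO, with an interval from -0.074 to 0.10. Sv2b, a forebrain form, stood at 168, 184, 188, 168 and 169.7 FPKM in ctrl and 182, 143, 166, 172 and 153 FPKM in BKO, with 3 BKO libraries below every ctrl library and an interval from -0.24 to 0.024. Sv2c, the form of basal ganglia, was low in cortex, with values of 7.96, 6.22, 7.36, 7.06 and 7.61 FPKM across ctrl libraries and 6.82, 7.54, 5.45, 8.97 and 7.62 FPKM across BKO libraries. The BKO libraries of Sv2c held both the lowest and the highest of its 10 values, and its interval was wide, from -0.25 to 0.24.

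The synapsins tether vesicles in the reserve pool, and none passed the test. The span of each synapsin gene holds a TIMP gene on the opposite strand. Syn1 also overlaps Araf, and Syngr1 overlaps Rpl3. Whether reads of these genes were mixed was not tested. Syn2 came nearest, with 187, 212, 201, 196 and 177 FPKM in ctrl libraries 1 to 5 and 174, 171, 162, 179.8 and 178 FPKM in BKO libraries 1 to 5. Only ctrl 5 lay within the range of the BKO libraries, and the log2 difference was -0.17 (SE 0.0498, limma adjusted p = 0.0707). Syn2 passed without ctrl 5 (limma adjusted p = 0.0182) and with library quality weights (0.0444). Syn1, the most abundant synapsin, stood at 244, 262, 255, 256 and 202 FPKM in ctrl and 236, 229, 240.5, 248 and 223 FPKM in BKO, the lowest of all being ctrl 5, with an interval from -0.18 to 0.09. Syn3, the synapsin of developing neurons, was low, with 5.81, 4.39, 6.04, 5.44 and 5.14 FPKM across ctrl libraries and 6.17, 6.64, 5.65, 5.37 and 5.56 FPKM across BKO libraries. No BKO library of Syn3 lay below the ctrl mean, but the groups overlapped (log2 difference 0.12, SE 0.0975, limma adjusted p = 0.573). Sncb, beta-synuclein, which binds vesicle membranes, was at 687 ± 59.5 and 648 ± 39.4 FPKM (SD, n = 5 each), with an interval from -0.21 to 0.044.

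The 3 genes of endocytosis and uncoating had log2 differences of -0.091 for Dnm1, -0.06 for Amph and -0.10 for Synj1, and none passed the test. Dnm1, dynamin-1, the GTPase that cuts vesicles from the membrane, went from 530.0 ± 40.7 to 497 ± 22.3 FPKM (SD over 5 libraries each), with an interval from -0.21 to 0.023. Synj1, the phosphatase synaptojanin that sheds the clathrin coat, went from 77.2 ± 4.97 to 72.0 ± 3.04 FPKM (limma adjusted p = 0.336), with all 5 BKO libraries below the ctrl mean. Amph, amphiphysin, which brings dynamin to the neck of the pit, was at 91.8 ± 6.90 and 87.9 ± 4.42 FPKM, with an interval from -0.18 to 0.058.

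The share of 1 paralog in the summed FPKM of its family does not depend on how a library is scaled, and 7 such shares were compared with an exact permutation test. None passed after adjustment over the 7 shares. Of the sum of Vamp1 and Vamp2, Vamp1 made up 15.5% ± 1.66 in the ctrl libraries and 13.4% ± 0.879 in the BKO libraries (SD, n = 5 each; exact permutation test, 2-sided, p = 0.0317, adjusted p = 0.0833). The share of Syt2 in Syt1 and Syt2 was 2.27%, 2.35%, 2.67%, 2.54% and 2.77% in ctrl libraries 1 to 5 and 1.84%, 2.09%, 2.22%, 2.05% and 2.13% in BKO libraries 1 to 5. The highest BKO share lay below the lowest ctrl share (2-sided exact permutation test, p = 0.00794, the smallest that 5 and 5 libraries allow, adjusted p = 0.0556, which is the lowest adjusted value a lone share can reach). Cplx1 made up 63.4% ± 2.37 of both complexins in ctrl and 60.4% ± 1.17 in BKO (SD, n = 5 each; exact permutation test, p = 0.0476, adjusted p = 0.0833). Syn2 made up 43.9% ± 1.36 of the synapsins in ctrl and 41.8% ± 1.41 in BKO (SD, n = 5 each; exact permutation test, p = 0.0397, adjusted p = 0.0833). In all of these the mean share of the named paralog was lower in BKO, by -2.16, -0.455, -3.03 and -2.14 percentage points (BKO minus ctrl) for Vamp1, Syt2, Cplx1 and Syn2. The other shares differed by -2.07 for Sv2b (exact permutation test, adjusted p = 0.156), 0.0866 for Sv2c (adjusted p = 0.675) and -0.682 for Napb (adjusted p = 0.583).

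**Figure D4:**
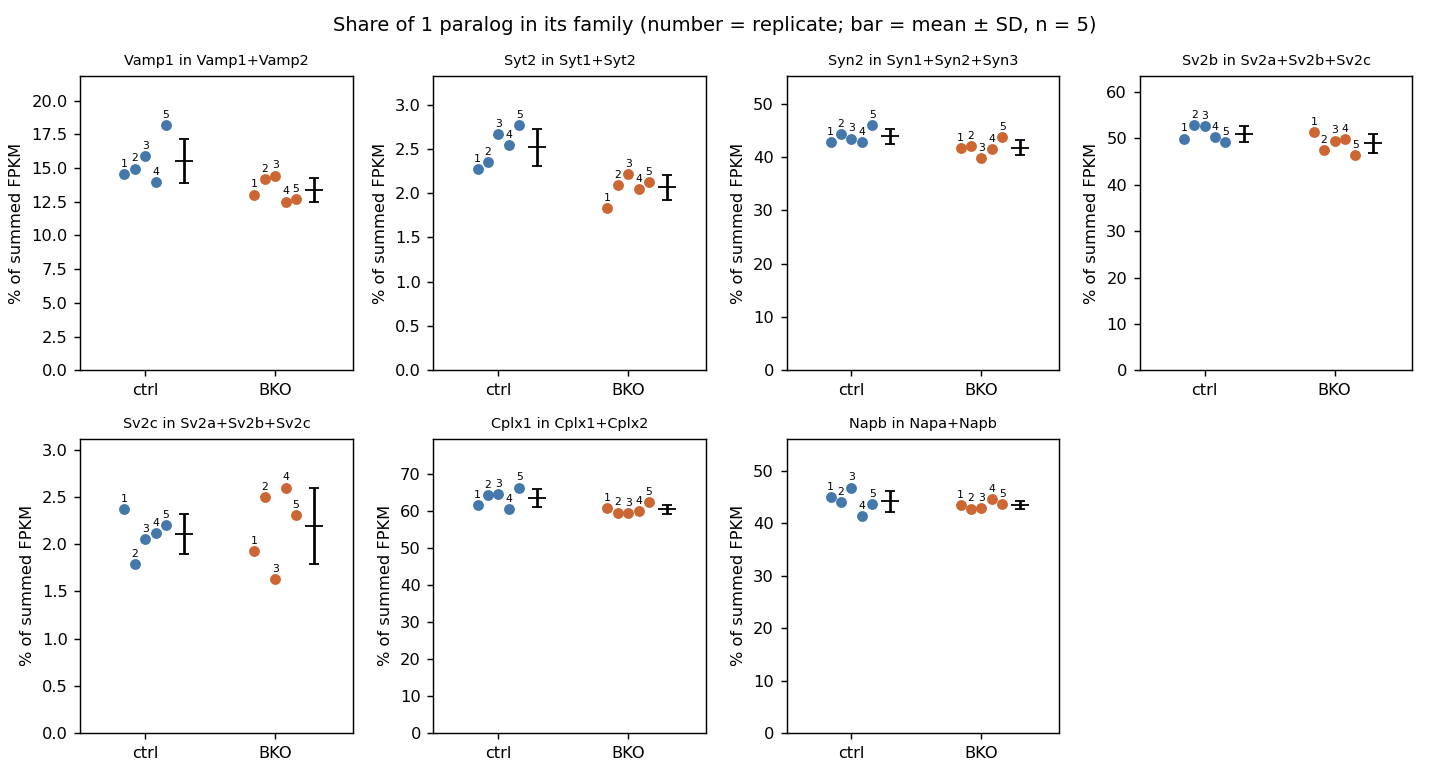
Share of 1 paralog in the summed FPKM of its family, in percent, for each library (numbers are replicates), with the mean ± SD (n = 5); every vertical axis starts at 0. The groups are apart for the share of Syt2 and overlap for the other 6 shares.

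Of 67 other genes of the same machinery, 2 fell and none rose, which is 2.99% against the 2.46% of all genes that fell, so their share was near the background. Their median log2 difference was -0.060, and 48 of the 67 were below 0. Both genes that fell act in endocytosis. Bin1, amphiphysin-2, which bends membranes and is also made in quantity by oligodendrocytes, stood at 181, 184, 175, 199 and 174 FPKM in ctrl and 151, 156, 167, 156 and 161 FPKM in BKO. The BKO values of Bin1 lay under all ctrl values (log2 difference -0.20, SE 0.0451, limma adjusted p = 0.0138). Sh3gl3, an endophilin that recruits dynamin and synaptojanin, stood at 38.0, 47.4, 46.5, 45.3 and 46.5 FPKM in ctrl and 39.2, 39.7, 36.4, 31.4 and 37.6 FPKM in BKO (log2 difference -0.28, SE 0.0732, limma adjusted p = 0.0385). Library ctrl 1 lay among the BKO libraries. The call on Bin1 held with each library left out (limma adjusted p = 0.0111 to 0.0403), and that on Sh3gl3 ended without ctrl 2, 3, 4 or 5, or without BKO 3, 4 or 5 (limma adjusted p = 0.0632 to 0.0992). By part, the number that fell was 0 of 14 for fusion, 0 of 13 for the active zone and 0 of 16 for vesicle proteins. It was 2 of 24 for endocytosis, which is 8.33% against 2.46% of all genes. Their median log2 differences were -0.082, -0.079, -0.064 and -0.037, in the same order. At an unadjusted limma p under 0.05, 3 of the 14, 3 of the 13, 0 of the 16 and 3 of the 24 were lower and none was higher. Over the 67 genes the lower ones made up 13.4%, against 8.35% of all genes, while 9.12% of all genes were higher. Among the active zone genes, the lower ones at this unadjusted threshold were Rims2, Erc2 and Ppfia3, named after their values were seen. For Rims2 all BKO libraries lay below all ctrl libraries (log2 difference -0.15, limma adjusted p = 0.124). This held for 3 of the 67 genes, or 4.48%, against 3.09% of all genes. The others were Bin1 and Sh3gl2 (log2 difference of Sh3gl2 -0.16, limma adjusted p = 0.0929).

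Markers of oligodendrocytes, and several of astrocytes, moved with the genotype. All 12 oligodendrocyte markers fell, their summed level going from between 3101 and 3732 FPKM in ctrl to between 1039.6 and 1424 FPKM in BKO, and 4 of 7 astrocyte markers rose (Gfap, Aqp4, Slc1a3 and Aldh1l1). The sum over all 7 astrocyte markers, with the 3 that were not called, was 1747 to 1959.6 FPKM in ctrl and 2148 to 2399.9 FPKM in BKO. Of 6 microglia markers only 1, C1qa, rose, where 3.32% of all genes rose. The difference of P2ry12 was below 0 (-0.16, limma adjusted p = 0.244). The summed groups of the 6 overlapped (189.9 to 227.8 FPKM in ctrl, 223 to 249 FPKM in BKO). None of the defining markers of these lists was at 0. Of 9 general neuron markers such as Stmn2 and Thy1 none was called, but all 9 differences were below 0, with a median of -0.11, and the summed level was 3723 to 3908 FPKM in ctrl and 3499.6 to 3677 FPKM in BKO, with no overlap. Of 7 genes listed as markers of fast-spiking interneurons, Kcnc1 and Nefh fell, which is 28.6% against 2.46% of all genes. All 7 differences were below 0 (summed level 518 to 565 FPKM in ctrl, 466 to 515 FPKM in BKO, with no overlap). Whether the 7 genes are particular to these cells was not tested. Pvalb, the marker that gives these cells their name, averaged 125 ± 15.6 FPKM in the ctrl libraries and 114 ± 10.9 FPKM in the BKO libraries (SD, n = 5 each; limma adjusted p = 0.469). The part of these cells in the results on the vesicle genes was not tested.

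When each library was shifted so that the mean of the general neuron markers was equal, every difference moved up by the same amount, and the calls changed. The median difference of all genes moved by 0.098 on the log2 scale, and 86.5% of the calls over all genes were then rises, against 57.4% with the FPKM as deposited. Relative to these neuron markers, Syt2 was still lower in BKO (-0.28, limma adjusted p = 0.0406). Vamp1, Snap25 and Syt11 were no longer called, at -0.17, -0.082 and -0.056 (limma adjusted p = 0.146, 0.302 and 0.385). Unc13a was called higher (0.16, limma adjusted p = 0.0475), as were 1258 of all 14447 genes tested, while 196 were called lower. The median of the 31 genes was then 0.025, below the 0.098 of all genes tested, and 20 of the 31 were above 0. The distance of the 31 genes from the other genes was left as it was by this shift.

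**Figure D5:**
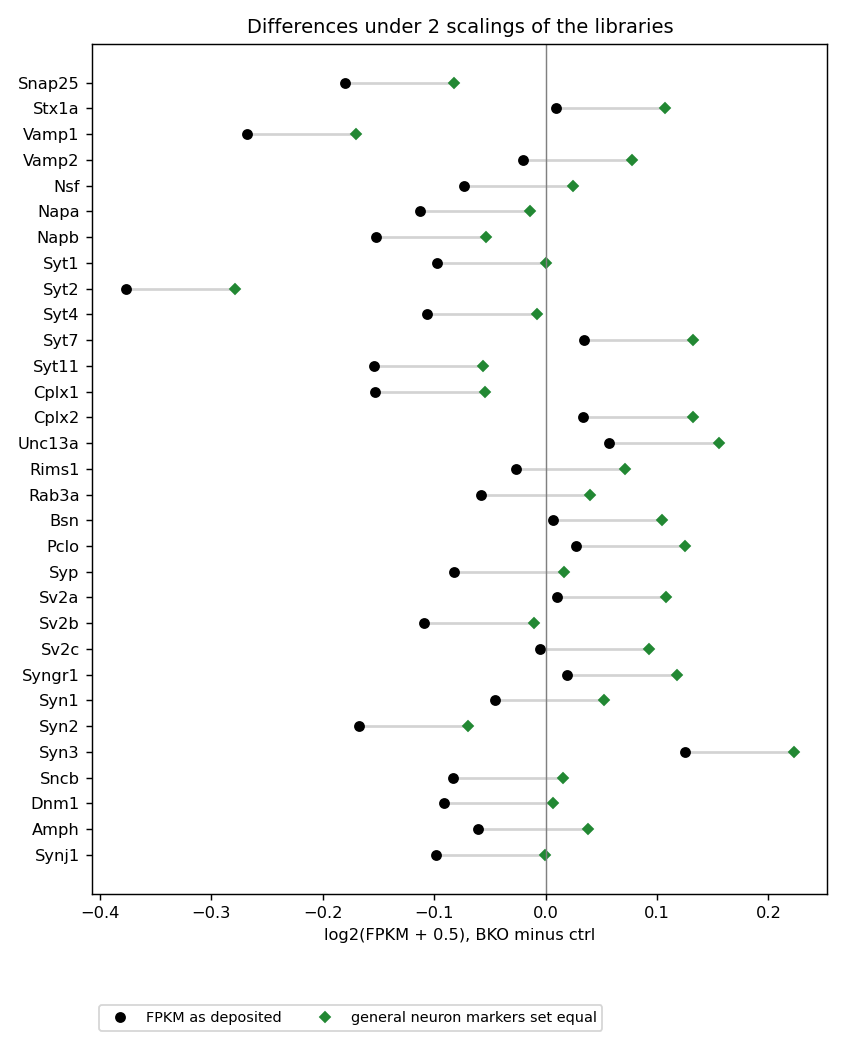
Log2 difference (BKO minus ctrl) of each of the 31 genes with the FPKM as deposited (circles) and with the mean of the general neuron markers set equal in all libraries (diamonds). All diamonds lie 0.098 to the right of their circle; Syt2 and Vamp1 are then the genes farthest to the left of 0.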

How the data were processed

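Per the labels' protocols, Trizol was used to extract total RNA and an MGIEasy kit to build the libraries. The authors deposited FPKM values, rounded to 2 decimals, with 1 column per library and 0 columns of other samples. STAR, HTSeq and the build mm39 are named per the submitters' processing notes, without versions; the formula of the FPKM, any filter and the use of strand are not given in the sources used here. No counts were used, so counting intervals are not given. From genes found in only some libraries, with nonzero values close to each other, relative depth came to about 0.843 to 1.28, from 12 to 25 genes a library. This choice of genes limits the spread that can appear, so the values are approximate and cannot show that depths were alike.

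The 14447 genes that reached 0.5 FPKM in 5 or more libraries were tested with limma 3.58.1 in R 4.3.3 on log2(FPKM + 0.5), with a trend in the variances, 2-sided, Benjamini-Hochberg adjusted over all of them. All 31 genes passed this filter. This scale understates the changes of low genes. Standard errors (SE) and 95% intervals are limma's moderated ones, and SD is taken over the libraries of a group. Shares and their exact permutation tests were computed in Python 3.11.15 with scipy 1.17.1. The fit and the exact test were tested on simulated data. The alternatives were other pseudocounts, filters and scalings, library weights, a robust fit, the replicate block, each library left out, and, chosen after seeing the data, the choroid plexus splits and covariate. The genes, lists and tests were chosen with earlier results of these data known. All 31 genes are named; those called or with groups apart, and those in a paralog share, are given in every library. Of the wider list the called genes are named, with Rims2, Erc2, Ppfia3 and Sh3gl2 added after their values were seen. Replicate numbers did not pair the libraries, as given with the alternatives. Promoters came from RefSeq, with the build GRCm38.p6; no coordinates of the build mm39 are given. The list of excitatory neuron markers is not reported here.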

Additional observations from a re-analysis of the deposited data

Results flagged for a closer look

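Of 76 groups of 5 values examined (31 genes and 7 shares, in ctrl and in BKO), 1 held a library far from the others. Vamp1 in BKO 3 was at 144 FPKM, while the other 4 BKO libraries lay between 123 and 127 FPKM. Chance alone flags about 1 in 20 such groups. Without BKO 3 the log2 difference of Vamp1 was -0.31 (limma adjusted p = 0.00714).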

How the results depend on the processing

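The number of the 31 genes that fell was 4 and became 2 (Syt2 and Vamp1) without the filter, with an equal FPKM sum, after quantile normalization, in the replicate block and with the choroid plexus covariate. It was 1 (Syt2) with the neuron markers set equal and 1 (Vamp1) within the 6 libraries with high Ttr, 0 within the 4 with low Ttr, and 1 to 5 with 1 library left out. Over all 14447 genes, 356 fell with the FPKM as deposited. It was 326 of 18360 without the filter, 297 with an equal FPKM sum, 347 after quantile normalization and 287 in the replicate block. It was 343 with the choroid plexus covariate, 196 with the neuron markers set equal, 172 with high Ttr and 103 with low Ttr. With 1 library left out, 264 to 349 of all genes fell. The number of the 31 genes that rose was 0, and 1 (Unc13a) with the neuron markers set equal, where 1258 of 14447 genes rose. Of the other 67 genes, 2 fell; it was 1 without the filter, with an equal FPKM sum and in the replicate block, 0 with the neuron markers set equal and within either choroid plexus split, and 1 to 2 with 1 library left out. None of the 67 rose, except 3 with the neuron markers set equal, where 1258 of 14447 genes rose. The shares could hardly pass their threshold at this number of libraries, so that none did under any setting, the replicate block included, says nothing about their stability; the share of Sv2c ran from -0.0152 to 0.227 percentage points with 1 library left out.

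Of 744 values for the 31 genes under other settings, 663 kept direction and call, 37 lost the call, 4 gained it and 40 changed sign, all of the last in uncalled genes. Setting the neuron markers equal moved every difference up by 0.098. The sign then turned for Vamp2 (0.0777), Nsf (0.0249), Syt1 (0.000847), Rims1 (0.0714), Rab3a (0.0398), Syp (0.0164), Sv2c (0.0932), Syn1 (0.0528), Sncb (0.0153), Dnm1 (0.00674) and Amph (0.0377). With an equal FPKM sum it turned for Vamp2 (0.00137) and Sv2c (0.0154), and after quantile normalization for Vamp2 (0.00309). Within the libraries with high Ttr it turned for Syt7 (-0.0337), Sv2a (-0.0167) and Syngr1 (-0.00752), and within those with low Ttr for Cplx2 (-0.00119), Rims1 (0.00743), Pclo (-0.00714) and Sv2c (0.0747). With 1 library left out, values ran from -0.0332 to 0.0502 for Bsn, -0.0146 to 0.0581 for Cplx2, -0.0213 to 0.0759 for Pclo, -0.0535 to 0.00123 for Rims1, -0.0206 to 0.0581 for Stx1a, -0.00367 to 0.0365 for Sv2a, -0.0800 to 0.0876 for Sv2c, -0.00360 to 0.0527 for Syngr1 and -0.0524 to 0.0123 for Vamp2.

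The replicate numbers did not pair the libraries, since deviations of same-numbered libraries from their group means correlated at -0.169 to 0.0855 across genes. In the replicate block Snap25 and Syt11 lost their calls (limma adjusted p = 0.0584 and 0.0773). The cause of these changes was not tested. Depth could not be read from the FPKM beyond the approximate relative values.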

Other observations

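The other side of the synapse was also listed. Of 8 genes of the postsynaptic density, such as Dlg4 and Homer1, none was called, and their median log2 difference was -0.029 (range -0.08 to 0.08). Of 5 inhibitory neuron markers none was called either, with a median of -0.022. None of 5 striatal markers was called, but all 5 differences were below 0, with a median of -0.069. Their summed level was 603 to 739 FPKM in ctrl and 641 to 690 FPKM in BKO. None of 4 thalamic markers was called (median 0.068), nor any of the 5 choroid plexus markers (median 0.19).

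Several of the 31 genes overlap another protein-coding gene in GENCODE M21, and the use of strand in counting is not given in the sources used here. These overlaps are of whole gene spans, and shared exons were not examined. Vamp1 overlaps Tapbpl and Cd27 on the opposite strand, which had mean levels of 7.22 and 0.343 FPKM, and Syt2 overlaps Ppp1r12b, at 18.7 FPKM, above Syt2 itself. Each synapsin gene holds a gene of the TIMP family of protease inhibitors on the opposite strand, Timp1 in Syn1 (1.84 FPKM), Timp4 in Syn2 (54.3 FPKM) and Timp3 in Syn3 (42.7 FPKM). Syngr1 overlaps Rpl3, at 568 FPKM. Snap25 and Syt11 overlap no protein-coding gene.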
